A study of Oryctolagus cuniculus with 18 samples.

Results

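Among 2052 cDNA clones spotted on filters and probed with rabbit embryo RNA, 25 (1.22%) passed a cut for a dip in the early morula. Lower in morulae than at both other stages, by any amount, were 29.8% of all clones. Relative to the other clones of an array, the signal of these 25 was lower in the early morula than in 4-cell embryos and expanded blastocysts. The level itself differed among them, from clones dim at every stage to clones bright at every stage. The clones were selected on the authors' deposited score for each array, averaged over the 6 arrays of a stage. A clone entered the group where the 4-cell mean and the blastocyst mean each exceeded the morula mean by at least 0.6 score units. Both differences, and the depth of the dip (the smaller of the 2), are therefore given as descriptions with no test. What the choice did not ask for was the order of the 4-cell and blastocyst levels and the difference between the amplification methods, and those were tested.

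The embryos were rabbit embryos (Oryctolagus cuniculus) that had developed in vivo. They were collected 32 h post coitum as 4-cell embryos, 58 h post coitum as early morulae and 90 h post coitum as expanded blastocysts, with 1 blastocyst pool taken at 96 h. Each stage had 3 pools. The 4-cell pools held 53 embryos from 3 females, 52 embryos from 4 females, and a number not given in the labels from 2 females. The morula pools held 34, 35 and 32 embryos from 2 females each. Blastocyst pool 1 (96 h) held 16 embryos from 2 females, pool 2 held 37 from 4 females and pool 3 held 60 from 7 females. RNA of each pool was amplified once by PCR and once by in vitro transcription, which yields antisense RNA (aRNA), and each product was labelled with radioactive phosphorus and hybridised to its own filter, which gave 18 arrays. The pool was taken as the replicate. Whole embryos were measured, so fewer cells with a transcript and less transcript per cell cannot be told apart.

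A mammalian embryo starts on transcripts and proteins stored in the oocyte. In the rabbit the stored transcripts decline during the first cleavages, and strong transcription of the embryonic genome sets in before the morula forms. The morula then compacts, and the blastocyst that follows has a fluid-filled cavity, an inner cell mass that forms the embryo proper, and an outer trophectoderm that forms placental tissue. The arrays read signal per spot, and a transcript of maternal origin and the same transcript made by the embryo cannot be told apart on them.

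The files give each clone by its ID only and do not pair it with a gene, and 0 of the clone IDs matched the RefSeq gene table used here. The clones are therefore named by ID, with no gene, function or sequence. For the same reason the labelled stages could not be checked against marker genes of oocyte, pluripotent cells, trophectoderm, cumulus or oviduct.

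The arrays differed in brightness. The median raw intensity over clone spots ran from 29 to 122 on the 4-cell arrays, 68 to 350 on the morula arrays and 28 to 386 on the blastocyst arrays. The deposited score followed log2 raw intensity linearly within each array (lowest r 1.00 over clones) and had an SD of 0.996 over clones on every array. One score unit therefore stood for a different step in intensity from array to array, namely 0.95 to 1.45 log2 units on 4-cell, 1.10 to 1.72 on morula and 1.30 to 1.90 on blastocyst arrays. Intensities were also corrected and quantile normalized here, and these log2 values, averaged over the PCR and aRNA array of a pool, are the levels given below. Both scales compare a clone with the other clones of its array, so they say nothing of a change shared by all transcripts. The number of arrays limits the precision.

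The median of the 25 clones stood among the brighter clones at both outer stages and in the middle of the range at the morula stage. Their median score was 0.715 (4-cell), -0.426 (morula) and 0.918 (blastocyst), while over all clones it was -0.252, -0.244 and -0.291. The 4-cell minus morula difference ran from 0.607 to 1.91 score units (median 0.785, over all clones 0.052). The blastocyst minus morula difference ran from 0.605 to 2.24 (median 0.861, over all clones -0.042). On the log2 scale the median level was 8.20 (4-cell), 6.86 (morula) and 8.40 (blastocyst). Among all clones these medians lay at percentiles 85.6, 45.3 and 87.0.

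**Figure D1:**
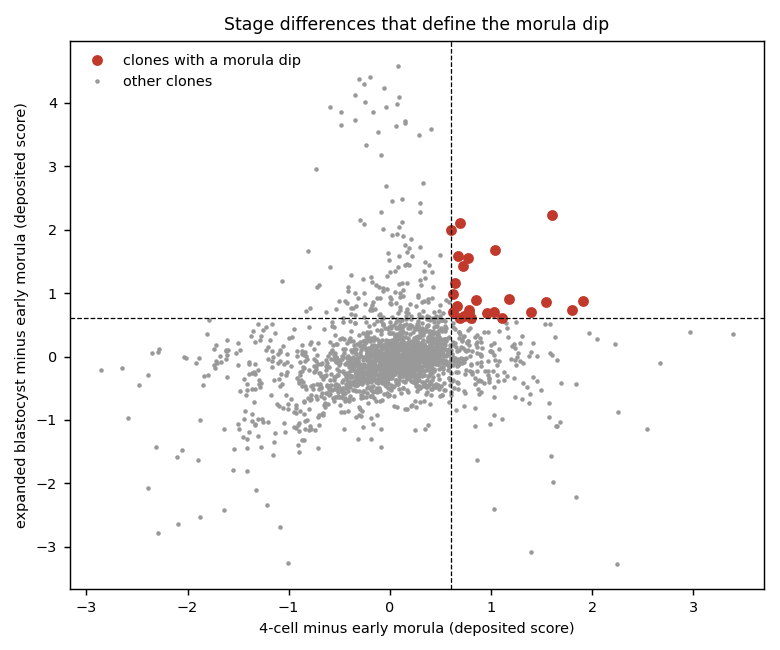
Each point is a clone, placed by its 4-cell minus morula difference (x axis) and its blastocyst minus morula difference (y axis), both in units of the deposited score, and the dashed lines mark the selection at 0.6. The 25 selected clones (red) lie in the upper right corner and most sit close to one of the lines, with 6 beyond 0.8 in both differences.

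On the log2 scale the 4-cell level exceeded the morula level by 0.56 to 2.50 (median 1.03, 14 clones at 1 or more), and the blastocyst level exceeded it by 0.61 to 2.65 (median 0.97, 12 clones at 1 or more). Both differences reached 1, a doubling of the normalized value, in 7 clones. Of these, lcao0031f03, lcao0031a01, lcao0045g04 and lcao0023b05 passed the detection level described below on no morula array. A doubling in both steps is therefore not shown for them. Of the 7, lcao0031f03, lcao0033g12 and lcao0023b05 also lie beside a brighter spot that rises in the blastocyst. The step down was the larger one in 14 clones and the step up in 11, with extremes of 2.50 down and 1.13 up in lcao0026b08 and of 0.56 down and 2.25 up in lcao0033d08. The spread among pools was wider than usual at both outer stages. At the 4-cell stage the median SD was 0.45 for these clones and 0.31 for all clones, and in blastocysts it was 0.27 against 0.18. In morulae it was 0.22 against 0.23. The clones were selected on the means of these same pools, so nothing is read from the wider spread.

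In 19 of the 25 clones every morula pool lay below every 4-cell pool and every blastocyst pool. Over all clones this held for 4.48%, but the selection used the same contrast, so nothing is read from the comparison. The morula pools were below all 4-cell pools in 22 clones (18.5% over all clones) and below all blastocyst pools in 21 (17.6% over all clones). The clones that overlapped on some side were lcao0031a01, lcao0045g04, lcao0043g12, lcao0032d07, lcao0041f01 and lcao0019e08.

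**Figure D2:**
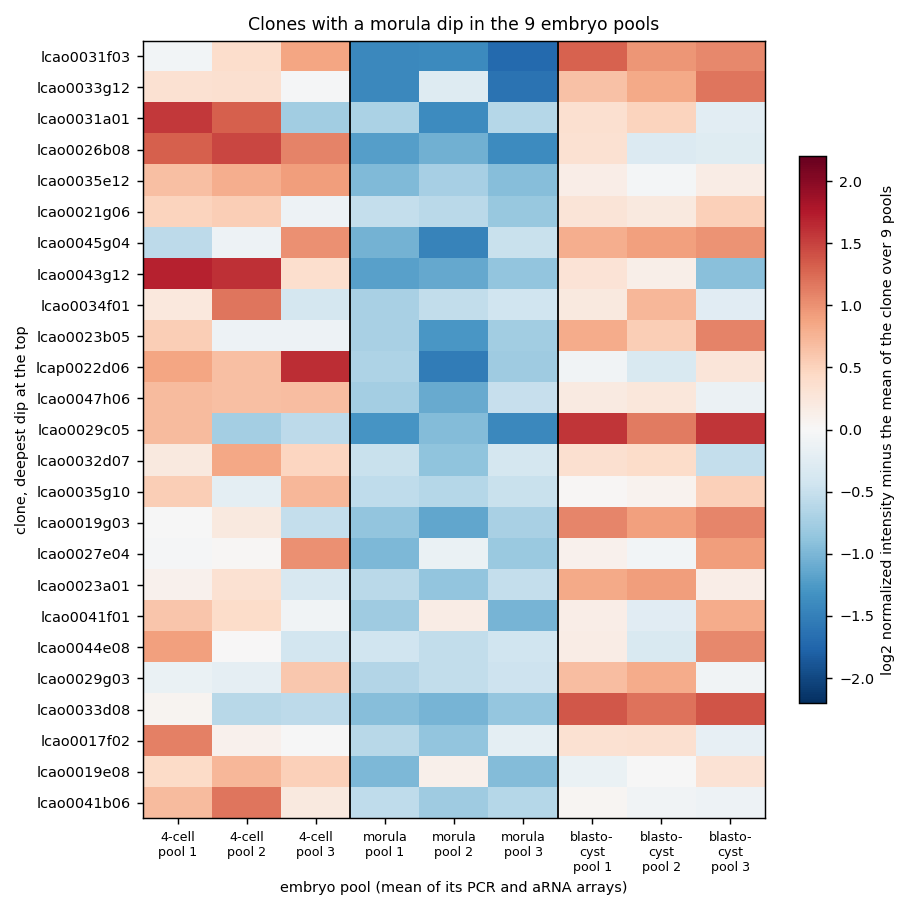
Rows are the 25 clones, deepest dip at the top, and columns the 9 embryo pools, with colour for the log2 normalized intensity minus the clone's own mean over the pools (red above it, blue below it). The 3 morula columns are blue in nearly every row, whereas the balance of the 4-cell and blastocyst columns differs from clone to clone.

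Detection differed between the stages. The level used to judge detection was the 95th percentile of the XWAB spots of an array, a set of non-clone spots whose role neither labels nor headers state. Of the 25 clones, 6 lay above it on all 6 arrays of the 4-cell stage, 2 on all 6 morula arrays and 8 on all 6 blastocyst arrays. Of the clones spotted once on the filter these shares were 4.57%, 8.40% and 8.45%. It was passed on no 4-cell array by 9 of the 25 (36.0%), on no morula array by 15 (60.0%) and on no blastocyst array by 9 (36.0%). Of the clones spotted once it was passed on no array by 73.3%, 64.7% and 76.5% at these stages. In 5 of the 25 no array of any stage passed it, and lcao0027e04 and lcao0019e08 passed it on all 18. Where a stage was not above the level on any array, its true level has only an upper bound, and the folds against it below are lower bounds. A bound sets the mean of the brighter stage against the dimmest spots that passed the level on the arrays of the dimmer stage. It makes no allowance for the spread among pools, for arrays of the brighter stage below the level or for adjacent spots.

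The deepest dip in the group was that of lcao0031f03. Its log2 level was 7.74, 8.19 and 8.66 in 4-cell pools 1 to 3, 6.38, 6.40 and 6.09 in the morula pools and 9.10, 8.77 and 8.85 in the blastocyst pools. The morula pools were apart from all others, by at least 1.33 log2 units. It passed the detection level on 1 4-cell array, no morula array and all 6 blastocyst arrays, so the blastocyst level was at least 1.62-fold the morula level. For its 4-cell level the same bound was -0.02 log2 units, so no fold of 4-cell over morula is given. The brightest spot adjacent to it was 10.1 times as bright and 4.41 score units higher in blastocysts than in morulae. The part of that spot in the bound of 1.62-fold was not tested. A second clone with this shape, lcao0033g12, had 8.46, 8.49 and 8.10 in 4-cell, 6.72, 7.85 and 6.51 in morula and 8.77, 8.97 and 9.30 in blastocyst pools. Here morula pool 2 stood 1.13 above the next morula pool and 0.24 below the lowest 4-cell pool.

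In lcao0026b08 and lcao0035e12 the fall to the morula was larger than the return. The levels of lcao0026b08 were 9.73, 9.87 and 9.51 in 4-cell pools, 7.21, 7.36 and 7.03 in morula pools and 8.75, 8.11 and 8.14 in blastocyst pools. Those of lcao0035e12 were 10.84, 10.96 and 11.09 in 4-cell, 9.20, 9.43 and 9.23 in morula and 10.32, 10.12 and 10.32 in blastocyst pools. No pools of different stages overlapped in either clone. The spread of lcao0035e12 within a stage was small, at an SD of 0.13, 0.13 and 0.12, against steps of 1.67 down and 0.97 up. It passed the detection level on 6 4-cell, 4 morula and 6 blastocyst arrays.

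Before normalization the spot of lcao0035e12 varied with the brightness of the array. On PCR arrays it read 822, 2414 and 5392 in 4-cell pools 1 to 3, 2318, 639 and 3697 in morula pools and 8137, 4373 and 1388 in blastocyst pools. On aRNA arrays it read 148, 813 and 213 in 4-cell, 838, 147 and 410 in morula and 5155, 2626 and 166 in blastocyst pools. Raw values of the stages overlapped widely, and the dip appeared once each array was set against its own clones.

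The 2 other clones among the 6 deepest were less regular. In lcao0031a01 the 4-cell pools read 9.83, 9.59 and 7.51, the morula pools 7.58, 6.89 and 7.65 and the blastocyst pools 8.64, 8.78 and 8.06. Its 4-cell pool 3 thus fell within the range of the morula pools. The spot passed the detection level on no morula array, on 4 4-cell arrays and on 4 blastocyst arrays. By stage means, the 4-cell level was at least 1.69-fold and the blastocyst level at least 1.21-fold that of morulae. The 4-cell bound did not hold in pool 3, and the SD of the 4-cell pools was 1.28. In lcao0021g06 the levels were 7.53, 7.58 and 6.93 in 4-cell, 6.51, 6.44 and 6.21 in morula and 7.33, 7.26 and 7.57 in blastocyst pools. Its morula pools were below all others, but the spot was above the detection level on none of the 18 arrays, so no fold is given.

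**Figure D3:**
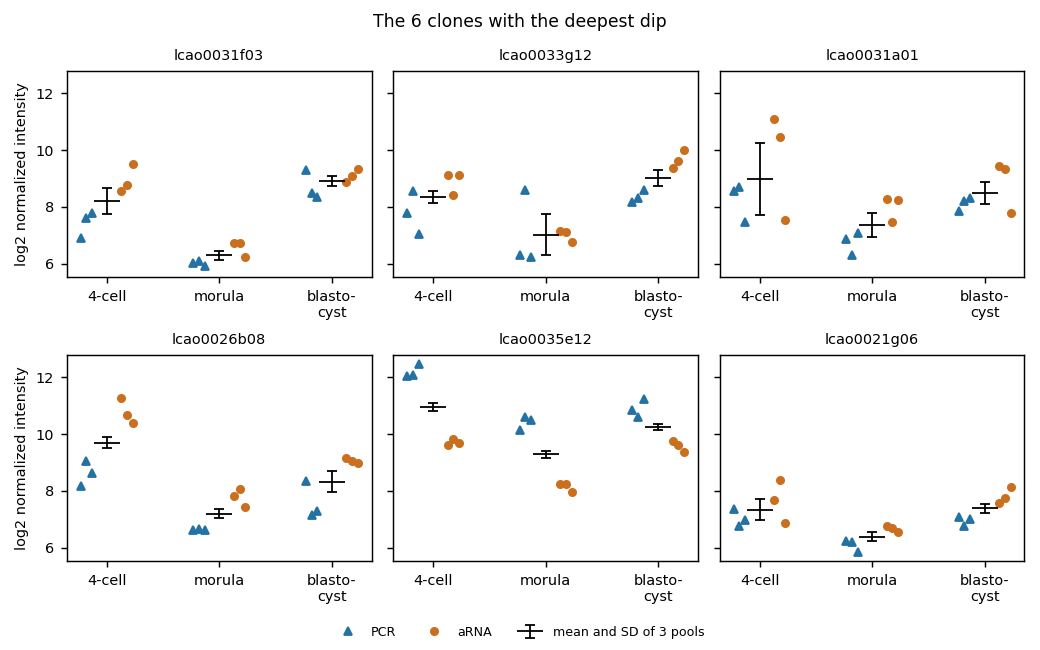
Log2 normalized intensity of the 6 clones with the deepest dip at each stage, with triangles for the 3 PCR arrays, circles for the 3 aRNA arrays and bars for the mean and SD of the 3 pools. The morula means are the lowest in each panel, PCR and aRNA points lie far apart in lcao0035e12 and lcao0026b08, and 1 PCR array of lcao0033g12 in morulae lies at the height of the 4-cell arrays.

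Some members were bright at all stages. The brightest of the group on average over the 9 pools were lcao0035e12, at 10.17, and lcao0027e04, at 9.87. In lcao0027e04 the 4-cell pools read 9.84, 9.89 and 10.88, the morula pools 8.89, 9.72 and 9.06 and the blastocyst pools 9.97, 9.81 and 10.78. Its highest morula pool was only 0.09 below the lowest blastocyst pool. The levels of lcao0019e08 were 10.24, 10.55 and 10.35 in 4-cell, 8.83, 9.93 and 8.86 in morula and 9.67, 9.81 and 10.13 in blastocyst pools. Here morula pool 2 lay above 2 of the 3 blastocyst pools.

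A further pair started high. In lcao0043g12 the levels were 11.18, 11.10 and 9.86 in 4-cell, 8.30, 8.37 and 8.63 in morula and 9.79, 9.62 and 8.58 in blastocyst pools, and blastocyst pool 3 fell among the morula pools. The one member with another name prefix, lcap0022d06, had 10.03, 9.83 and 10.79 in 4-cell, 8.49, 7.63 and 8.38 in morula and 9.09, 8.83 and 9.43 in blastocyst pools. In it all stages were apart, in the order 4-cell, blastocyst, morula.

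The clones lcap0022d06, lcao0045g04, lcao0034f01, lcao0023b05, lcao0032d07, lcao0035g10, lcao0019g03, lcao0023a01, lcao0041f01, lcao0044e08 and lcao0029g03 lie outside the rule for named clones and were named after their values had been seen. In lcao0045g04 the 4-cell pools read 7.88, 8.35 and 9.46, the morula pools 7.43, 6.99 and 7.97 and the blastocyst pools 9.27, 9.37 and 9.46. Its blastocyst level was at least 2.22-fold the morula level. Its 4-cell level was above the detection level on only 1 array, so no fold of 4-cell over morula is given. The largest morula value overlapped the 4-cell pools. In lcao0023b05 the levels were 8.89, 8.24 and 8.24 in 4-cell, 7.63, 7.06 and 7.59 in morula and 9.16, 8.90 and 9.44 in blastocyst pools. The blastocyst level of this clone was at least 1.93-fold that of morulae. The 4-cell mean, with 3 arrays above the detection level, was at least 1.18-fold. The brightest spot adjacent to this clone was 9.93 times as bright and 3.94 score units higher in blastocysts than in morulae. The part of that spot in these bounds was not tested. The stages of lcao0023b05 did not overlap. The clone lcao0047h06 had the tightest 4-cell pools, at 8.99, 8.94 and 8.97, with 7.55, 7.18 and 7.78 in morula and 8.49, 8.54 and 8.16 in blastocyst pools. None of its stages overlapped.

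Dimmer members followed the same outline with smaller steps. In lcao0034f01 the 4-cell pools read 7.43, 8.38 and 6.82, the morula pools 6.50, 6.66 and 6.76 and the blastocyst pools 7.42, 7.93 and 6.95. The 4-cell pool 3 of this clone was 0.06 above the highest morula pool. In lcao0032d07 the levels were 7.30, 7.93 and 7.57 in 4-cell, 6.60, 6.21 and 6.70 in morula and 7.44, 7.49 and 6.57 in blastocyst pools, so blastocyst pool 3 lay among the morulae. In lcao0035g10 they were 7.58, 6.81 and 7.76 in 4-cell, 6.47, 6.40 and 6.54 in morula and 7.05, 7.11 and 7.55 in blastocyst pools, and the morula pools spanned only 0.14. The last 2 clones were above the detection level on no array.

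In lcao0023a01 the levels were 7.25, 7.49 and 6.79 in 4-cell, 6.55, 6.28 and 6.62 in morula and 7.99, 8.07 and 7.30 in blastocyst pools. In lcao0029g03 they were 6.45, 6.40 and 7.20 in 4-cell, 5.96, 6.06 and 6.14 in morula and 7.28, 7.42 and 6.53 in blastocyst pools. Neither passed the detection level on any array, though their morula pools were below all others. In lcao0041f01 the 4-cell pools read 7.72, 7.51 and 7.04, the morula pools 6.33, 7.27 and 6.08 and the blastocyst pools 7.25, 6.86 and 7.92. Morula pool 2 of that clone lay among both the 4-cell and the blastocyst pools.

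The dimmest member was lcao0044e08, with 7.40, 6.51 and 6.09 in 4-cell, 6.06, 5.95 and 6.06 in morula and 6.66, 6.17 and 7.55 in blastocyst pools. It passed the detection level on 1 blastocyst array and no other. In lcao0017f02 the levels were 8.35, 7.34 and 7.24 in 4-cell, 6.64, 6.39 and 7.03 in morula and 7.59, 7.60 and 7.07 in blastocyst pools. Its lowest blastocyst pool exceeded its highest morula pool by only 0.04. The 4-cell pool 1 of this clone read 10.53 on the aRNA array and 6.18 on the PCR array. On PCR arrays alone its depth was -0.018 score units, and it met the threshold in 4 of the 9 cases with 1 pool left out. In lcao0041b06 the levels were 8.20, 8.68 and 7.73 in 4-cell, 6.96, 6.73 and 6.89 in morula and 7.55, 7.44 and 7.40 in blastocyst pools, with all stages apart.

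The edge of the group is a matter of hundredths of a score unit. Just inside it, the depth was 0.606 in lcao0017f02, 0.606 in lcao0019e08 and 0.605 in lcao0041b06. Just outside, it was 0.596 in lcao0042d12, 0.583 in lcap0004b05 and 0.578 in lcao0047c06. At a threshold of 0.5 the group would hold 40 clones and at 0.8 only 6. Leaving out 1 pool at a time, 7 clones met the threshold in all 9 cases and 18 missed it in at least 1. Without morula pool 2 only 14 of the 25 met it. The 7 were lcao0031f03, lcao0033g12, lcao0031a01, lcao0026b08, lcao0035e12, lcao0021g06 and lcao0035g10.

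The dip was seen with each amplification. On the PCR arrays alone 24 of the 25 clones were lower in morulae than at both other stages (30.3% of all clones were), and on the aRNA arrays alone all 25 were (28.9% of all clones). The full threshold was met by 17 on PCR alone (31 over all clones), by 18 on aRNA alone (41 over all clones), by 11 on each and by 1 on neither. The titles also carry an array code of 4, 5 or 6, each of which holds 1 pool per stage. Code 4 holds 4-cell pool 1, morula pool 2 and blastocyst pool 3. Code 5 holds 4-cell pool 2, morula pool 3 and blastocyst pool 1, and code 6 holds 4-cell pool 3, morula pool 1 and blastocyst pool 2. Within code 4 the score was lower in morulae than at both other stages in 25 clones, within code 5 in 25 and within code 6 in 24. Over all clones the shares were 33.9%, 27.2% and 30.9%. The threshold was met by 15, 13 and 11 of the 25, against 3.22%, 1.75% and 1.90% of all clones. All 25 clones had been chosen on the mean of these arrays, so the counts describe how evenly the arrays carry the dip.

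Spots sit close together on these filters, so the brightness of the up to 8 adjacent spots within a block was recorded. Of the 25 clones, 13 (52.0%) had an adjacent spot at least 4 times as bright in mean raw intensity, against 61.2% of all clone spots. In 8 of the 13 the brightest adjacent spot was a clone that was itself higher in blastocysts than in morulae by 2.69 to 4.41 score units, and 9.70 to 31.4 times as bright as the member. The brightest adjacent spot was a clone in 12 of the 13. A neighbour higher in blastocysts by 2 score units or more was found for 14.9% of the 1150 clone spots that lie next to a clone at least 4 times as bright. The 8 members were lcao0031f03, lcao0033g12, lcao0021g06, lcao0023b05, lcao0035g10, lcao0019g03, lcao0041f01 and lcao0041b06, a group formed after their values had been seen. The part of the neighbour in their blastocyst signal was not tested.

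The same neighbours were also compared between 4-cell embryos and morulae. Their 4-cell minus morula difference ran from -0.588 to 0.154 score units, so none reached the 0.6 of the selection. The part of the neighbour in the 4-cell signal of these members was not tested either. Of the 12 bright neighbours that were clones, 3 were higher at the 4-cell stage than in morulae (38.6% over such spots in general) and 1 reached 0.6. That one was lcao0043g12, itself a member, 19.0 times as bright as lcao0044e08 beside it. Among the 13 members with an adjacent spot at 4 times or more, the median steps were 0.96 down to the morula and 0.79 up to the blastocyst (log2). Among the 12 without one they were 1.32 and 0.99. Split by a bright neighbour that itself rises in the blastocyst, the step up had a median of 1.37 in the 8 members with one and 0.97 in the other 17. Morula pools were below all others in 11 of the 13, in 7 of the 8 and in 8 of the 12. Over all clones this held for 5.20% of those with a bright adjacent spot and 3.37% of those without. The 12 were also brighter, at a median level of 8.62, against 7.21 for the 13. The split divides by the clone's own raw intensity, so dim clones enter the 13 more readily, and nothing is read from this difference.

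**Figure D4:**
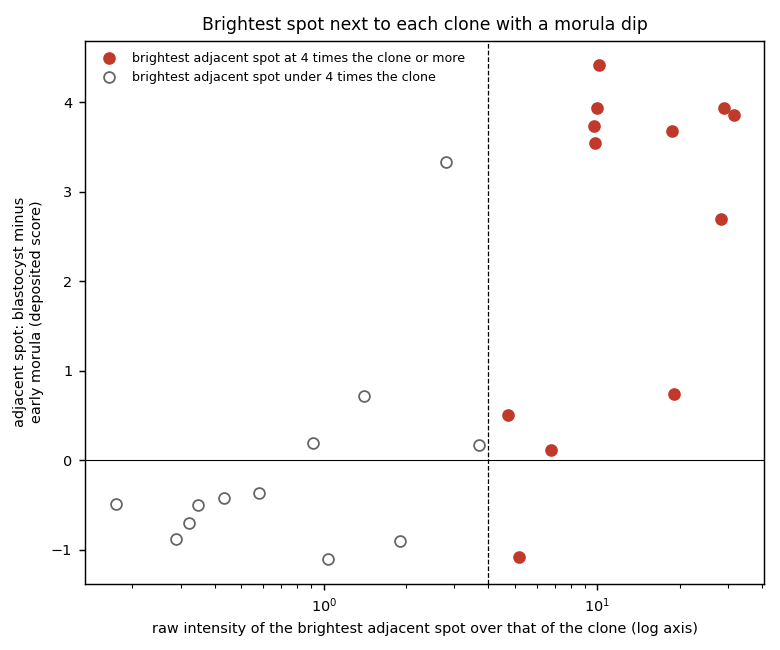
For each clone with a clone as its brightest adjacent spot, the raw intensity of that spot relative to the member (x axis, log scale) is set against its blastocyst minus morula difference (y axis, deposited score). Of the 12 filled points at 4 times or more, 8 form a group above 2 score units, and 1 open point, the neighbour of lcao0019e08, lies there at 2.80 times.

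The first tested question was whether the level regained in the blastocyst differed from that of the 4-cell embryo. By limma, 9 of the 25 clones (36.0%) differed at an adjusted p under 0.05, with 4 higher and 5 lower in blastocysts. Among all 2052 clones 14.7% were higher and 14.2% lower, 28.8% in all. The median difference was -0.08 for the 25 and -0.08 for all clones, and 11 of the 25 were above 0. The median SE over the 25 was 0.28, and the 16 clones not called are not shown to be equal between the stages. Without blastocyst pool 2 the count of members called was 5, with 3 higher and 2 lower. The test uses the same 4-cell and blastocyst arrays on which the clones were selected as higher than in morulae.

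Among clones higher in blastocysts, the largest differences were those of lcao0033d08 and lcao0029c05. In lcao0033d08 the blastocyst pools read 8.33, 8.15 and 8.34 and the 4-cell pools 7.03, 6.35 and 6.38, with morula pools at 6.01, 5.93 and 6.12. The difference of 1.69 ± 0.22 (log2, SE) had an adjusted p of 9.24e-05. Since no 4-cell array and only 2 blastocyst arrays passed the detection level, no fold is given. In lcao0029c05 the blastocyst pools read 10.35, 9.93 and 10.36, the 4-cell pools 9.48, 8.04 and 8.21 and the morula pools 7.49, 7.83 and 7.36. Its difference of 1.64 ± 0.33 had an adjusted p of 0.00269, a 3.11-fold higher level in a spot above the detection level on all 6 blastocyst and 4 of 6 4-cell arrays.

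Smaller differences were called in another 2 clones. In lcao0019g03 the blastocyst pools read 8.60, 8.42 and 8.59, the 4-cell pools 7.52, 7.73 and 6.99 and the morula pools 6.66, 6.37 and 6.81. The difference was 1.12 ± 0.23 (adjusted p = 0.0024), with the detection level passed on 4 blastocyst arrays and no 4-cell array. In lcao0031f03 it was 0.71 ± 0.24 (adjusted p = 0.0439). Blastocyst and 4-cell pools did not overlap in any of these 4 clones. The call in lcao0031f03 was lost under 10 of 17 alternatives, among them leaving out any 1 of 7 pools (adjusted p of 0.0547 to 0.16). Both lcao0019g03 and lcao0031f03 are among the clones beside a bright spot that rises in the blastocyst.

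The largest differences among clones lower in blastocysts were those of lcao0043g12 and lcao0026b08. In lcao0043g12 the blastocyst mean was 9.33 ± 0.66 and the 4-cell mean 10.71 ± 0.74 (SD, n = 3 pools each), a difference of -1.38 ± 0.38 (SE, limma adjusted p = 0.0152). In lcao0026b08 the means were 8.33 ± 0.36 in blastocysts and 9.71 ± 0.18 in 4-cell embryos (SD, n = 3 pools each). The difference there was -1.37 ± 0.22 (limma adjusted p = 0.000528), which is 2.59-fold lower, with the detection level passed on 4 blastocyst and 6 4-cell arrays. In lcap0022d06 it was -1.10 ± 0.30 (adjusted p = 0.016), in lcao0041b06 -0.74 ± 0.24 (adjusted p = 0.033) and in lcao0035e12 -0.71 ± 0.18 (adjusted p = 0.0107). In each of these 5 clones every blastocyst pool lay below every 4-cell pool. Of the 5, lcao0041b06 was the one with an adjacent spot at 4 times its brightness, and its own spot passed the detection level on no blastocyst and 1 4-cell array.

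Most of these calls were lost when 1 pool was left out, with the sign kept. Without blastocyst pool 2 the difference of lcao0035e12 was -0.64 (adjusted p = 0.0606). That of lcao0043g12 was lost without 4-cell pool 1, 4-cell pool 2 or blastocyst pool 3, with differences of -1.19 to -1.004 (adjusted p of 0.0608 to 0.0664). That of lcap0022d06 was lost without 4-cell pool 3, blastocyst pool 1 or blastocyst pool 2, with differences of -1.09 to -0.81 (adjusted p of 0.0523 to 0.0727). That of lcao0041b06 was lost when any 1 of 5 pools was left out, with differences of -0.78 to -0.50 (adjusted p of 0.0601 to 0.113). The call of lcao0026b08 held without each pool in turn.

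The direction of these lower levels depended on how arrays were scaled. With arrays centred on their medians in place of quantile normalization, 6 of the 25 were called higher and 0 lower, with a median difference of 0.51. Over all clones the calls then were 246 higher and 66 lower. The differences of lcao0035e12, lcao0043g12 and lcap0022d06 changed sign under that scaling, to 0.69, 0.11 and 0.19, none of them called. Those of lcao0026b08 and lcao0041b06 kept their sign, at -0.37 and -0.16, and were not called. The count also shifted on the deposited score, the scale of the selection, where 7 of the 25 were called, 5 higher and 2 lower. The median difference there was -0.06 score units. The calls of lcao0043g12, lcap0022d06 and lcao0041b06 as lower were lost on that scale.

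The second tested question was whether the amplification method changed the level. Of the 25 clones, 8 (32.0%) differed between PCR and aRNA arrays of the same pools by limma, with 5 higher and 3 lower on PCR. Over all clones 9.26% were higher and 9.94% lower, 19.2% in all. The largest difference was in lcao0035e12, at 2.62 ± 0.15 (log2, SE, adjusted p = 5.94e-07), higher on PCR in 9 of 9 pools by 1.54 to 3.40. Its mean over the 9 pools was 11.46 on PCR arrays and 8.84 on aRNA arrays.

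Next came lcao0043g12, at 1.75 ± 0.27 (adjusted p = 0.000883), higher on PCR in 8 of 9 pools, and lcao0029c05, at 0.98 ± 0.17 (adjusted p = 0.00182), higher in 7 of 9. Lower on PCR were lcao0026b08, at -0.97 ± 0.18 (adjusted p = 0.00345, 9 of 9 pools), lcao0047h06, at -0.91 ± 0.16 (adjusted p = 0.00182, 8 of 9) and lcao0027e04, at -0.88 ± 0.24 (adjusted p = 0.024, 8 of 9). The other 2 called clones, lcap0022d06 (0.58 ± 0.18) and lcao0019e08 (0.47 ± 0.14), each had an adjusted p of 0.0409 and were higher on PCR in 8 and in 9 pools. The calls of lcap0022d06 and lcao0019e08 were lost when any 1 of 6 and any 1 of 7 pools was left out (adjusted p up to 0.119 and 0.138), and that of lcao0027e04 when any 1 of 6 was (up to 0.0715). Leaving out blastocyst pool 1, 2 or 3, the count of members called was 5. All 8 were among the 12 members with no adjacent spot at 4 times their brightness. Over all clones 27.9% were called among the 802 with no such spot and 13.6% among the 1250 with one. When each amplification was quantile normalized on its own, 3 of the 25 were called higher and 15 lower on PCR. Over all clones that scaling called 54 higher and 1194 lower, and the median difference over all clones was -0.50. Under it the differences of lcap0022d06 and lcao0019e08 changed sign, to -0.029 and -0.051.

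The depth of the dip was then compared between the methods, as the mean of the 4-cell and blastocyst levels minus the morula level. Its median over the 25 clones was 1.09 on PCR arrays (0.35 to 2.23) and 1.27 on aRNA arrays (0.70 to 2.31). Of the 25, 0 differed between the methods by limma, and of all clones 0%. At an unadjusted p under 0.05, 0 of the 25 and 110 of 2052 clones were found, and the lowest adjusted p among the 25 was 0.91. With limma's array weights 8 clones were called and with median centring 2, none of them a member. The differences ran from -1.22 to 0.46 with standard errors of 0.31 to 0.86, so differences in depth of about the size of the dip itself were not detectable in some clones. The widest gap was in lcao0043g12, with a dip of 0.99 on PCR and 2.21 on aRNA arrays (difference -1.22 ± 0.57).

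**Figure D5:**
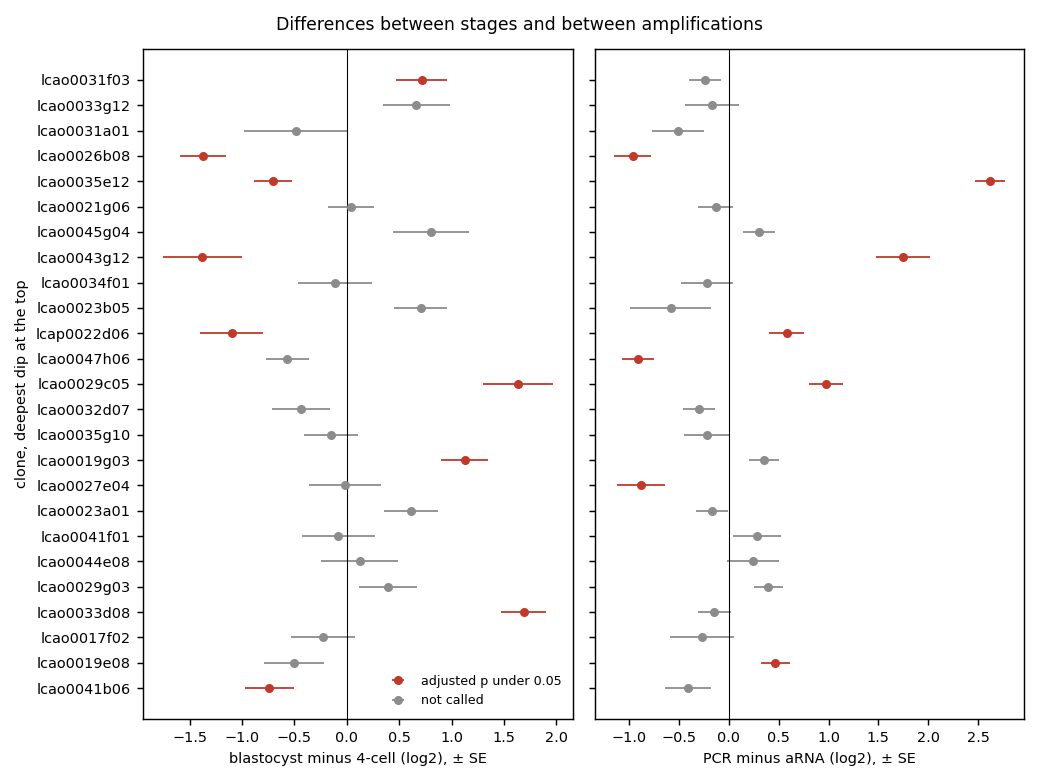
Fitted differences with standard errors for the 25 clones, blastocyst minus 4-cell on the left and PCR minus aRNA on the right (log2), with red for an adjusted p under 0.05. The left panel has 4 red points right of 0 and 5 left of it, and on the right lcao0035e12 stands apart at 2.62.

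The names and positions of the clones were not used in the selection. Of the 25, 24 (96%) carry the prefix lcao and 1 the prefix lcap, while lcao makes up 49.6% of all clones (1017 of 2052, with 1017 lcap, 15 lcal and 3 lcaq). Neither labels nor headers say what the prefixes stand for. With the threshold at 0.5 the group would hold 36 lcao clones of 40. The members came from 18 plates, with at most 2 on a plate, and from 15 of the 16 blocks of the filter, with at most 3 in a block. Only lcao0043g12 and lcao0044e08 were in adjacent positions.

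Collection time differed within the blastocyst stage, where pool 1 was taken at 96 h and the others at 90 h. Pool 1 was the highest of the 3 blastocyst pools in 5 of the 25 clones, pool 2 in 7 and pool 3 in 13. Over all clones these shares were 25.6%, 30.2% and 44.2%.

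The mean profile of the 25 clones was 8.52, 8.43 and 8.25 in 4-cell pools 1 to 3, 7.16, 7.17 and 7.20 in morula pools and 8.47, 8.38 and 8.41 in blastocyst pools. Outside the group, the clones whose 9 pool values followed this profile most closely were lcao0024h12, lcap0001a11 and lcao0019g12, each with a Pearson r of 0.90. They share the pools and arrays with the members, and r is given as a description. In lcao0024h12 the 4-cell pools read 6.94, 6.85 and 6.81, the morula pools 6.22, 6.56 and 6.44 and the blastocyst pools 6.81, 6.77 and 7.03. All 3 had the dip in shape but were shallower, with depths of 0.409, 0.479 and 0.471 score units.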

How the data were processed

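Per the file headers, the authors quantified spots with AGScan at a constant diameter, which gave 1 raw intensity per spot on a linear scale with no background column. The deposited quality column, of the kind other (0 or 1 per spot), has no stated meaning and was described only. A score for every spot name is deposited in 1 table for the series, where 217 non-clone rows are listed at 0. The sources used here do not say which log base the score has or how the authors made it. Clone names are the first 11 characters in lower case without dots, and repeated names were averaged.

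The background of each array was corrected by normexp in limma (offset 50, fitted on every spot), and values were log2 transformed and quantile normalized over clone spots, within each amplification for stages and over all 18 arrays for PCR against aRNA. The mean of a pool's 2 arrays was fitted with limma over all 9 pools (lmFit and eBayes). PCR against aRNA and the dip depth were fitted on the 9 differences within pools. A Benjamini-Hochberg adjusted p under 0.05, over 2052 clones, counted as a call. Standard errors (SE) are those of the fits, and SDs are over the 3 pools of a stage. The scripts were tested on simulated data. Versions were R 4.3.3, limma 3.58.1, pandas 2.3.3, numpy 2.4.6 and matplotlib 3.10.9.

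Same-numbered pools of different stages did not deviate together (r of -0.20 to 0.20, with 3 of 9 pairs over 0.1), so the numbers were not taken as pairs. Same-numbered pools also carry different array codes, so these r values do not speak to pools that share a code. Named clones were the 6 deepest, the 2 highest and 2 lowest in blastocyst minus 4-cell, 3 on each side of the threshold, up to 3 called per direction for PCR minus aRNA, the 2 brightest and the 3 most alike outside the group. The members and the rules were chosen with earlier results of these data known.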

Additional observations from a re-analysis of the deposited data

How the results depend on the processing

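The number of clones with a morula dip, 25, was 40 at a threshold of 0.5 and 6 at 0.8. It was 41 on aRNA arrays alone (18 shared), 38 at 0.6 log2 units on normexp and quantile normalized values (24 shared) and 59 at 0.6 log2 units on raw values centred on array medians (23 shared). Without a bright adjacent spot, an alternative chosen after seeing the data, it was 12. Leaving out 1 pool gave 21 to 30 clones, with 14 to 23 of the 25 among them and 14 without morula pool 2. For blastocyst against 4-cell, leaving out 1 pool gave 5 to 12 members called, with the 5 (3 higher, 2 lower) without blastocyst pool 2, and 475 to 647 clones. Median centring gave 312 clones called, 78.8% of them higher against 50.8% before, and the 802 clones with no bright adjacent spot gave 313. For PCR against aRNA, leaving out 1 pool gave 5 to 7 members, 5 without each blastocyst pool in turn, and 274 to 452 clones. Quantile normalization within each amplification gave 18 members and 1248 clones, 54 of them higher and 1194 lower, array weights gave 597 clones and the clones with no bright adjacent spot 240. For the dip depth, median centring called 2 clones and array weights 8, against 0, and leaving out 1 pool called 0 members and 0 clones. Under median centring the blastocyst minus 4-cell difference reversed to 0.69 in lcao0035e12, 0.11 in lcao0043g12 and 0.19 in lcap0022d06. Under quantile normalization within each amplification PCR minus aRNA reversed to -0.029 in lcap0022d06 and -0.051 in lcao0019e08. The cause of these shifts was not tested, except that fewer clones or pools entered where some were left out. The call of lcao0041b06 in blastocyst against 4-cell was lost under 8 alternatives, and for PCR against aRNA those of lcao0019e08, lcap0022d06 and lcao0027e04 under 9, 8 and 7. With the replicate block, which does not pair the pools, 579 clones and 9 members were called for blastocyst against 4-cell, 412 and 7 for PCR against aRNA, and 0 for the dip depth. Fitted with the array code as a term, the calls were 626 clones and 9 members for blastocyst against 4-cell. They were 358 and 8 for PCR against aRNA, and 0 for the dip depth. Signal near the level of the XWAB spots limits the dim members, and 15 of the 25 members passed it on no morula array.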

Other observations

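A step of 0.6 score units stood for 0.57 to 1.14 log2 units of raw intensity, and for more than 0.6 on 16 of the 18 arrays, so a cut of 0.6 in log2 units of raw intensity was looser on those 16. On normexp corrected, quantile normalized values, 14 clones outside the group met 0.6 log2 units in both differences, 11 of them with the prefix lcao, and their depth on the deposited score was 0.364 to 0.596. On raw values centred on array medians there were 36 such clones, 29 lcao and 7 lcap, with a depth of 0.162 to 0.596 on the deposited score. Of all 38 clones that met it on the quantile normalized values, 89.5% were lcao.

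The deposited quality value of 1 was more frequent on spots of the 25 clones than on all clone spots. At the 4-cell stage it stood on 37.3% of their spots, against 11.1% of all clone spots. In morulae the shares were 32.0% and 24.4%, and in blastocysts 46.0% and 20.0%. Neither labels nor headers say what the value marks.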
